A study of Cricetulus griseus with 4 samples.

Results

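The genes described here are COL11A2, NID1, LAMA4, HYAL3 and ITGAV, 5 genes of the basement membrane, of collagen, of hyaluronan turnover and of the cell surface receptors for matrix. They were chosen by their symbols, from among 347 genes on 350 probes with 1 symbol, on arrays of 1152 probes in all. Each of the 5 had 1 probe, printed as 2 adjacent spots. The choice was made with the log2 ratios of these same arrays known, so their values are a description and no test on them is offered as support.

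Channel 1 of each of 4 two-channel arrays held RNA of RT210B, a clone with stable chromosomes, and an equal mixture of RNA of unstable clones was in channel 2. Mixture 1 held the clone LS12 and 1 other unstable clone, and mixture 2 held Fe10-3 and 10-56-11, with 2 arrays for each mixture. The series title asks for expression differences between isogenic clones that are chromosomally stable or unstable. As background that the labels do not give, these clones are known to come from a Chinese hamster ovary hybrid line used to study chromosomal instability after radiation. The labels state the species as Chinese hamster and give no treatment, time or cell type, and nothing says that the replicates came from separate cultures, so the spread between arrays may be technical. RT210B is 1 clone and the only control. A pooled mixture cannot show which of its clones differs, and in bulk RNA fewer expressing cells and less RNA per cell cannot be told apart.

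Basement membranes are thin sheets of matrix in which a laminin network and a collagen IV network are joined by nidogen and the proteoglycan perlecan. Collagens such as type XI form or regulate fibrils in cartilage and other connective tissue, and hyaluronan, a long sugar polymer, fills the space between cells until hyaluronidases cleave it. Cells hold on to these materials through integrins, receptors built of an alpha and a beta chain that link the matrix to the actin skeleton. Cultured fibroblast-like cells make many of these components themselves.

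Each value is a log2 ratio between the channels of an array, averaged over the 2 spots of a probe, minus the median over the array's probes. A value of 0 is therefore the array's middle probe, and 1 is a 2-fold distance from it. What was subtracted was -0.12 and -0.22 in mixture 1, then -0.44 and -0.53 in mixture 2. Which channel is the numerator was not settled by the labels, so the sign tells the side of the middle probe and not the pool with more RNA. The labels put RT210B in the same channel on every array, and a difference between channels cannot be told apart from one between pools. The arrays differed in spread, with an SD over probes of 1.14 and 1.05 (log2) in mixture 1 and of 0.796 and 0.471 in mixture 2. Spot intensities were not analysed here, so signal over background is unknown, and how well hamster RNA binds probes with human gene names was not measured. Of 56 marker genes of stromal, epithelial, endothelial, blood and neural cells, 2 were on a probe with 1 symbol, too few to check a cell type.

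COL11A2 encodes the alpha 2 chain of type XI collagen, which sits inside cartilage fibrils and sets their width. Its centred log2 ratio was 1.52 and 1.79 in mixture 1, and 0.93 and 0.74 in mixture 2. All 4 arrays lay on the positive side, and the arrays of mixture 1 lay above those of mixture 2. The mean was 1.66 in mixture 1 and 0.84 in mixture 2 (SE 0.288, n = 2 arrays each), which is 3.15-fold and 1.79-fold from the middle probe. Every SE given here comes from the limma fit, which pools both mixtures and borrows from all probes. An SE is therefore not the spread of the 2 arrays of a mixture. Counted from the most positive of the 1152 probes, COL11A2 ranked 39th and 43rd in mixture 1, then 92nd and 12th in mixture 2. In the deposited values, without centring, it was also positive on all 4 arrays, at 1.41, 1.57, 0.49 and 0.21.

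The partner chain COL11A1, which is not among the 5 genes, had values of 1.14 and 1.34 in mixture 1 and of 0.83 and 0.50 in mixture 2. Each of these values was lower than that of COL11A2 on the same array. In the fit across all probes COL11A1 passed in mixture 1 (log2 1.24, SE 0.290, limma adjusted p 0.0117) and in the mean of both mixtures (0.95, SE 0.205, limma adjusted p 0.0108). It passed in 12 of 13 alternatives in mixture 1 and 9 of 12 in the mean, where it was lost without replicate 1 of mixture 2 (0.87). COL2A1, whose product serves as the third chain of type XI collagen as well as forming type II, was not on the same side throughout. Its values were -0.43 and 0.63 in mixture 1 and -0.83 and -0.89 in mixture 2, and its 2 spots lay 2.37 apart on replicate 2 of mixture 1. Cross-hybridisation between collagen genes, whose repeats are alike, was not tested.

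**Figure D1:**
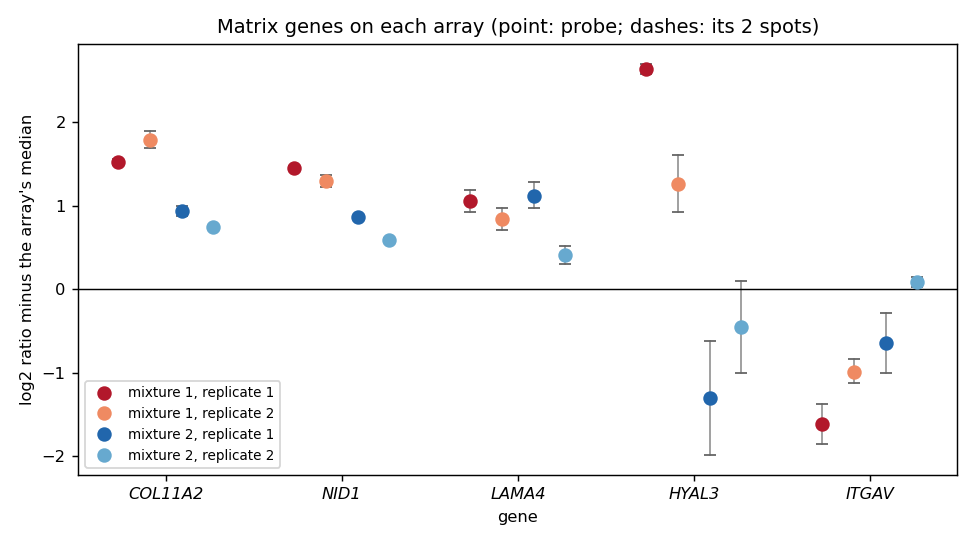
Centred log2 ratio (y axis) of COL11A2, NID1, LAMA4, HYAL3 and ITGAV (x axis) on each of the 4 arrays; points are probe values coloured by array, and dashes joined by a line are the 2 spots. COL11A2, NID1 and LAMA4 lie above 0 on all 4 arrays, HYAL3 lies above 0 in mixture 1 (2.64 and 1.26) and below it in mixture 2 (-1.30 and -0.46), and ITGAV lies below 0 on 3 arrays.

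NID1 encodes nidogen 1, the glycoprotein that bridges laminin and collagen IV in the basement membrane. Its values were 1.45 and 1.29 in mixture 1, then 0.86 and 0.59 in mixture 2. Like COL11A2 it was positive on all 4 arrays with the mixtures not overlapping. The mean was 1.37 in mixture 1 and 0.73 in mixture 2 (SE 0.287, n = 2 arrays each), 2.58-fold and 1.66-fold from the middle probe. In the deposited values it was positive on all 4 arrays too, but only by 0.06 on replicate 2 of mixture 2.

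LAMA4 encodes the laminin alpha 4 chain, found in basement membranes of vessels and of mesenchymal tissue. It had values of 1.05 and 0.84 in mixture 1 and of 1.12 and 0.41 in mixture 2. The mixtures overlapped, and the highest and the lowest value were both from mixture 2. The means were 0.95 and 0.77 (SE 0.309, n = 2 arrays each), 1.93-fold and 1.70-fold from the middle probe. Centring set the side of 1 array: in the deposited values LAMA4 lay at -0.12 on replicate 2 of mixture 2.

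HSPG2, the gene of perlecan and the other basement membrane gene that could be named, was on the opposite side. Its values were -0.50 and -0.14 in mixture 1 and -1.83 and -0.34 in mixture 2, all negative and with replicate 1 of mixture 2 far below the others. Neither mixture passed in limma (adjusted p 0.521 and 0.249), nor did the mean of both (-0.70, SE 0.271, adjusted p 0.0677). These calls were not stable: HSPG2 passed in mixture 2 in 6 of 12 alternatives, over values of -1.83 to -0.34, and in the mean in 6 of 11, among them the values without centring (-1.03, adjusted p 0.0125) and in the fit blocked on replicate number (-0.70, adjusted p 0.0442). Of the 6 in mixture 2, the fit on its own arrays and those without either array of mixture 1 are the same fit. Without replicate 1 of mixture 2 the mean of both mixtures was -0.33. Its 2 spots lay 1.31 to 1.74 apart on 3 of the 4 arrays, and its side in mixture 1 turned with the spot used, at -1.15 from the first alone and 0.45 from the second alone, and was 0.02 after removal of a trend on the spot difference. As centred, 2 of the 3 measured genes of this basement membrane list had a positive and 1 a negative mean in both mixtures. Of the 26 genes in the list, 3 were on a probe with 1 symbol.

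HYAL3 belongs to the hyaluronidase family, whose better known members cleave hyaluronan in lysosomes and at the cell surface. Its values were 2.64 and 1.26 in mixture 1 and -1.30 and -0.46 in mixture 2. The mixtures lay on opposite sides of the middle probe on every array, with and without centring. Among the 5 genes it had the widest range over the 4 arrays, 3.95, against 0.71 to 1.71 for the others. On replicate 1 of mixture 1 HYAL3 was the 4th most positive of 1152 probes, and on replicate 1 of mixture 2 it was the 87th most negative.

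The mean of HYAL3 was 1.95 in mixture 1 and -0.88 in mixture 2 (SE 0.394, n = 2 arrays each), a difference of 2.83 (SE 0.558). This gap was 3.61 from the first spot of the probe alone and 2.06 from the second spot alone. The SD between the 2 arrays was 0.978 in mixture 1 and 0.599 in mixture 2, while the SE from the fit is shared by both mixtures. On replicate 2 of mixture 2 the spots disagreed in side, at -1.01 and 0.10 after centring. Without replicate 1 of mixture 1 the mean of that mixture was 1.26, and without replicate 1 of mixture 2 the mean of mixture 2 was -0.46. The pattern of HYAL3, positive on both arrays of mixture 1 and negative on both of mixture 2, was seen in 76 of 1152 probes (6.6%).

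ITGAV encodes integrin alpha V, the receptor chain that pairs with several beta chains to bind vitronectin, fibronectin and other matrix proteins. It had values of -1.62 and -0.99 in mixture 1 and of -0.65 and 0.09 in mixture 2. The arrays of mixture 1 were the lower ones, and replicate 2 of mixture 2 lay almost on the middle probe. The means were -1.30 and -0.28 (SE 0.327, n = 2 arrays each), 2.46-fold and 1.21-fold from the middle probe. In the deposited values ITGAV was negative on all 4 arrays, at -1.73, -1.21, -1.09 and -0.44, so its side on replicate 2 of mixture 2 depended on the centring. Over all probes, 162 of 1152 (14.1%) were negative on both arrays of mixture 1 and on 1 of 2 arrays of mixture 2.

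The other integrin alpha chains that could be named were ITGA7, a laminin receptor of muscle, and ITGA9. ITGA7 had values of -1.32 and -0.51 in mixture 1 and of -0.32 and -0.10 in mixture 2, and ITGA9 had -0.18 and -0.80, then -0.19 and -0.48. Both were negative on all 4 arrays, with and without centring, as averages of 2 spots. After centring so were 229 of 1152 probes. On replicate 1 of mixture 2 the spots of ITGA9 lay on opposite sides, at -0.75 and 0.37. The first spot of ITGA7 lay at 0.02 on replicate 2 of mixture 2. ITGA7 passed in mixture 1 (log2 -0.91, SE 0.317, limma adjusted p 0.0453) but in only 3 of 12 alternatives, with an adjusted p of up to 0.385 without replicate 1 of mixture 1 (log2 -0.51). ITGA9 did not pass in mixture 1 (log2 -0.49, SE 0.306, limma adjusted p 0.217), where leaving out 1 of its arrays gave -0.18 or -0.80. It passed there after removal of a trend on the spot difference (-1.13, adjusted p 0.0414), and in the mean of both mixtures without centring (-0.74, adjusted p 0.0254, against -0.41 and 0.157). Of 41 matrix receptor genes 3 were measured, all with a negative mean in both mixtures. Over all probes 584 of 1152 had a negative mean in mixture 1 and 579 in mixture 2. The median of the 3 genes in mixture 1 was that of ITGA7, -0.91, beside -0.03 over all probes. ITGAV was chosen with its values known, so nothing is read from the count. No beta chain was on a probe with 1 symbol.

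In mixture 1 all 5 genes passed in the fit across all probes (limma, Benjamini-Hochberg adjusted p under 0.05), COL11A2, NID1, LAMA4 and HYAL3 on the positive and ITGAV on the negative side. Over the whole array 497 of 1152 probes (43.1%) passed, 24.4% with a positive and 18.8% with a negative value. The genes were chosen from this comparison, so nothing is read from their count. Without centring 524 probes passed, and the split of 281 positive to 216 negative became 232 to 292. LAMA4 was then among those that did not pass.

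In mixture 2 none of the 5 genes passed, as none of the 1152 probes did (0.0%) in limma, although 226 probes had an unadjusted p under 0.05. Once the arrays were scaled to 1 spread, 262 probes passed in mixture 2, COL11A2, NID1, LAMA4 and HYAL3 among them. Without centring 206 passed there, and of the 5 genes HYAL3 was the 1 among them (log2 -1.37). In the mean of both mixtures COL11A2 (log2 1.25, SE 0.204), NID1 (1.05, SE 0.203), LAMA4 (0.86, SE 0.219) and ITGAV (-0.79, SE 0.232) passed. HYAL3 (0.53, SE 0.279), whose sides cancel in that mean, did not pass. With all 4 arrays kept, ITGAV no longer passed on arrays scaled to 1 spread (-0.60) or from the first spot alone (-0.89). LAMA4 no longer passed without centring (0.53). Over probes with close duplicate spots neither LAMA4 (0.22) nor NID1 (0.41) passed. After a trend on the spot difference was removed, only COL11A2 (0.92) of the 5 passed. Over all probes 446 (38.7%) passed in the mean, 250 positive (21.7%) and 196 negative (17.0%), and without centring 558 passed, 124 positive and 434 negative. Both mixtures were set against the same clone RT210B, so their values are not independent of each other.

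**Figure D2:**
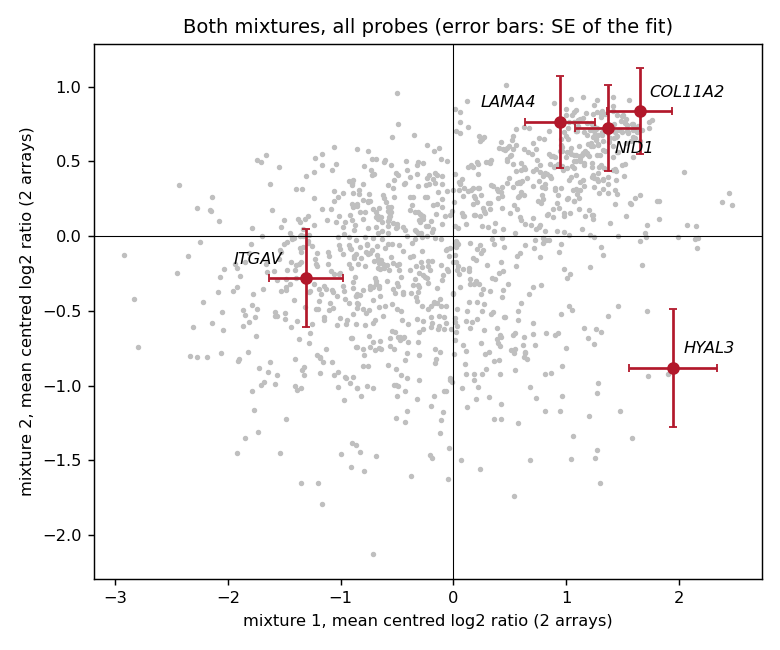
Mean centred log2 ratio of mixture 1 (x axis, 2 arrays) against that of mixture 2 (y axis, 2 arrays) for all 1152 probes in grey, with the 5 genes in red and the SE of the fit as error bars. COL11A2 (1.66 and 0.84), NID1 and LAMA4 lie in the dense group of probes at the upper right, and HYAL3 (1.95 and -0.88) lies at the lower right.

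COL11A2, NID1 and LAMA4 were positive on all 4 arrays, as were 297 of 1152 probes (25.8%). For COL11A2, NID1 and HYAL3 both arrays of mixture 1 lay above both of mixture 2, a pattern of 36.2% of probes, and for ITGAV both lay below, as for 26.0%. Neither share sets the 5 genes apart. Between the mixtures no gene of the 5 passed, and no probe of 1152 did (0.0%) in limma, with 275 probes at an unadjusted p under 0.05. Among the alternatives that kept all 4 arrays, HYAL3 passed for this difference without centring, as did 47 of 1152 probes, and with the replicate block, as did 36. It passed in no other of them, and the other 4 genes passed in none. With 1 array left out its difference was 2.14 to 3.52.

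The larger values of COL11A2 and NID1 in mixture 1 went together with the larger spread of those arrays, while LAMA4 overlapped between the mixtures on either scale. Expressed in SDs over the probes of each array, COL11A2 lay at 1.34 and 1.71 in mixture 1 and at 1.17 and 1.58 in mixture 2. NID1 lay at 1.27 and 1.23, then at 1.08 and 1.26, and LAMA4 at 0.92 and 0.80, then at 1.41 and 0.87. On this scale the mixtures overlapped for COL11A2 and NID1 too. With the arrays scaled to 1 spread, mixture 1 minus mixture 2 was 0.03 for COL11A2, -0.01 for NID1 and -0.29 for LAMA4, against 0.82 (SE 0.407), 0.64 (SE 0.406) and 0.18 (SE 0.437) as centred. HYAL3 still differed by 2.50 and ITGAV by -0.66 on the scaled arrays, against 2.83 and -1.02 (SE 0.463).

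The 2 spots of a probe give a measure of precision that did not serve to choose the genes. For NID1 the spots lay 0.0414 to 0.145 (log2) apart over the 4 arrays and for COL11A2 0.0249 to 0.195, closer than the median probe on each array. LAMA4 had differences of 0.212 to 0.314, and ITGAV of 0.117 to 0.723. The spots of COL11A2, NID1 and LAMA4 lay within 0.5 on all 4 arrays, as did those of 389 of 1152 probes (33.8%). For HYAL3 the spots were 0.123 and 0.677 apart in mixture 1 and 1.37 and 1.11 apart in mixture 2. At those last values, HYAL3 was at the 96.9th and 98.3rd percentile of all probes, so its negative values in mixture 2 were among the least precise on those arrays.

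**Figure D3:**
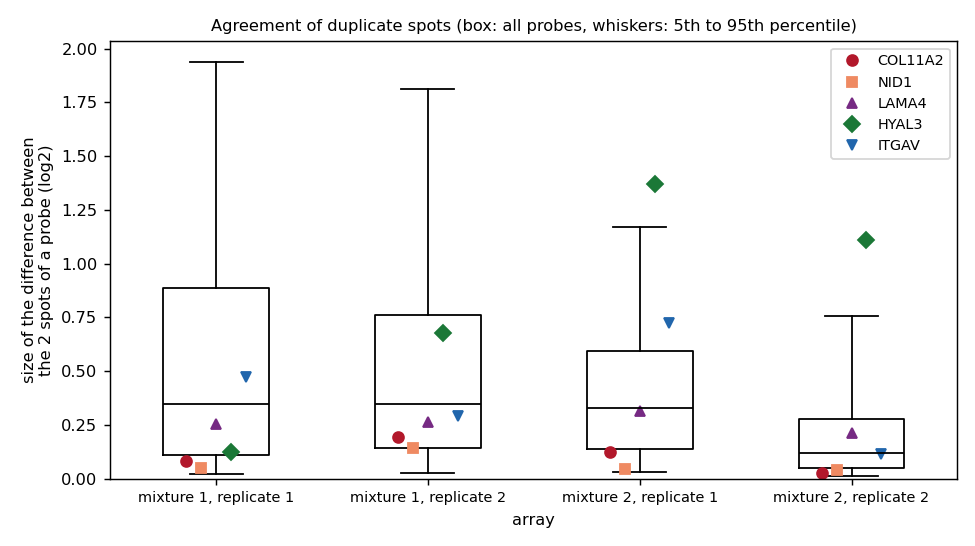
Size of the log2 difference between the 2 spots of a probe (y axis) on each array (x axis); boxes show the quartiles of all 1152 probes with whiskers from the 5th to the 95th percentile, and symbols are the 5 genes. NID1 and COL11A2 lie below the median on every array, and HYAL3 lies above the upper whisker on both arrays of mixture 2 (1.37 and 1.11).

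Agreement of spots went with the side of the ratio over the whole array. Probes at least 2-fold on the positive side had a median spot difference of 0.111 and 0.160 in mixture 1, and probes at least 2-fold on the negative side had 0.631 and 0.576. COL11A2 and NID1 shared the close spots of the positive side. After a trend of the ratio on the spot difference was removed, an alternative of a kind chosen after seeing the data, COL11A2 lay at 1.28 and 0.56 in the mixtures and NID1 at 0.87 and 0.42. NID1 then passed neither in mixture 1 nor in the mean of both mixtures, and LAMA4 (0.87 in mixture 1) and, in the mean, ITGAV (-0.69) did not pass. The part of spot precision in these values was not tested further.

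Among the other collagen genes COL6A3, a chain of the type VI collagen that surrounds cells with fine filaments, was positive on all 4 arrays after centring, at 0.72 and 0.87 in mixture 1 and 0.14 and 0.36 in mixture 2. It did not pass in mixture 1 (log2 0.79, SE 0.286, limma adjusted p 0.0512), and without centring its mean in mixture 2 was -0.24. BMP1, the protease that trims procollagen ends, had -0.27 and -0.35, then 0.22 and 0.10. Of the 35 collagen and collagen processing genes 5 were measured, and 2 passed in mixture 1, COL11A1 and COL11A2, a share near the 43.1% of all probes. COL11A2 was chosen with this result known, so nothing is read from the count. Biglycan (BGN), a small proteoglycan of the matrix, had 0.29 and 0.55, then 0.93 and 0.32, and did not pass in the mean of both mixtures (log2 0.52, SE 0.215, limma adjusted p 0.0823).

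Of 38 genes of matrix proteases and their inhibitors 4 were measured, all of them matrix metalloproteinases. The membrane-bound enzymes MMP14 and MMP15 were negative on all 4 arrays, as were 229 of 1152 probes. MMP14, which activates MMP2 and cleaves collagen at the cell surface, had -0.71 and -1.08 in mixture 1 and -0.53 and -0.16 in mixture 2. MMP15 had -1.09 and -1.58, then -0.08 and -0.07. The spots of MMP15 lay 1.94 apart on replicate 2 of mixture 1. On replicate 1 of mixture 2 they lay on opposite sides, at -0.83 and 0.68. Its mean in mixture 2 was 0.15 after removal of a trend on the spot difference. Both passed on the negative side in mixture 1, MMP14 at -0.89 (SE 0.296, limma adjusted p 0.0384) and MMP15 at -1.33 (SE 0.294, limma adjusted p 0.0105), and in the mean of both mixtures (limma adjusted p 0.0448 and 0.0279). These calls were fragile for MMP14, which passed in 2 of 12 alternatives in mixture 1 and 3 of 11 in the mean, with values of -0.71 and -0.53 without replicate 2 of mixture 1. MMP15 passed in 10 of 12 in mixture 1 and 4 of 11 in the mean. In the mean it was lost from either spot alone, without replicate 2 of mixture 1 (-0.58) and without either array of mixture 2 (-0.70).

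The secreted enzymes did not share a side. MMP12, the macrophage elastase, had values of 1.28 and -0.25 in mixture 1 and 0.97 and 0.31 in mixture 2. MMP13, a collagenase, had 0.76 and 0.04, then -0.78 and -0.65. Neither passed in mixture 1 (limma adjusted p 0.315 and 0.320).

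Downstream of the integrins, the gene of the protein named integrin-linked kinase (ILK) had values of -1.31 and 1.14 on the arrays of mixture 1. The adaptor paxillin (PXN) had 0.28 and -1.27, and caveolin 1 (CAV1) 0.15 and 1.5. The replicates of mixture 1 disagreed by more than 1 log2 unit for all 3. ILK and PXN, on opposite sides, give no reading there, and CAV1 gives none of its size. The same holds for the side of MMP12 (1.28 and -0.25) and for the size of HYAL3 (2.64 and 1.26), also more than 1 unit apart. In mixture 2 the means of ILK, PXN and CAV1 were -0.54, -0.19 and -0.03, and none of the 3 passed in either mixture (limma adjusted p 0.103 to 0.971).

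Over all 7 gene lists, 20 of 216 genes were measured. Of the 15 that are not among the 5 genes described, 1 passed with a positive and 3 with a negative value in mixture 1, with a median log2 of -0.08 beside -0.03 over all probes. Over all probes 24.4% passed with a positive and 18.8% with a negative value. In the mean of both mixtures 1 passed with a positive and 2 with a negative value, with a median of -0.31 beside -0.10, and over all probes 21.7% and 17.0% passed.

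**Figure D4:**
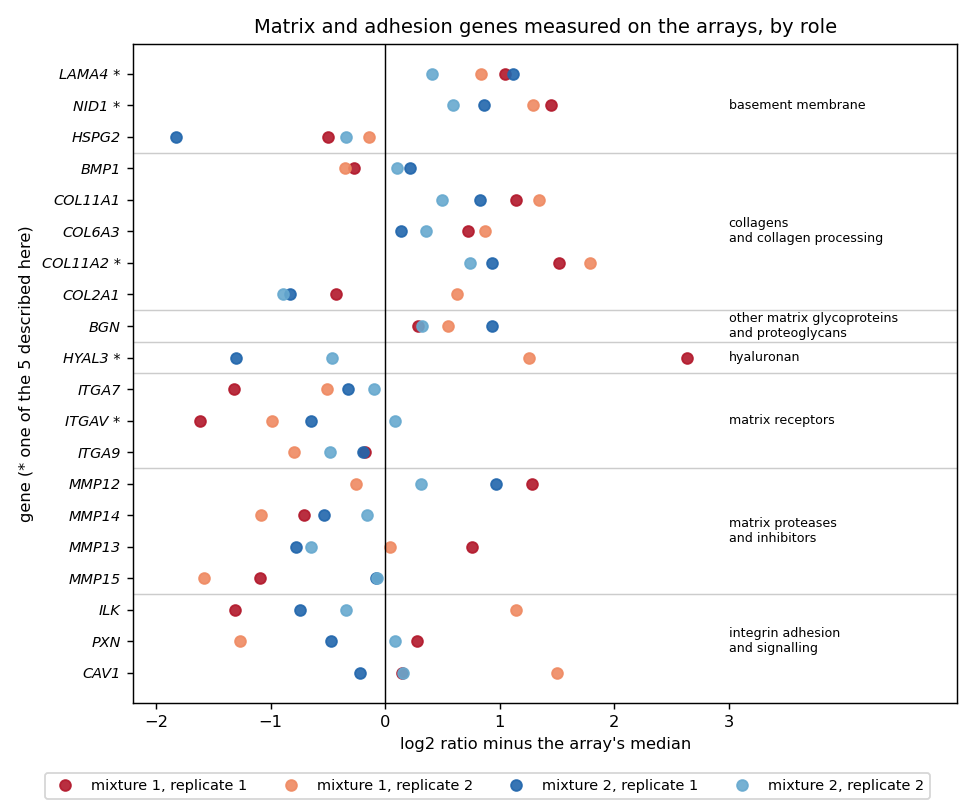
Centred log2 ratio (x axis) of the 20 measured matrix and adhesion genes (y axis, grouped by role) on each of the 4 arrays, coloured by array; stars mark the 5 genes described. COL11A1 and COL11A2 lie on the positive side on every array, and MMP14, MMP15, ITGA7, ITGA9 and HSPG2 on the negative side on every array. Points are averages of 2 spots, which for these last 5 genes differed in side on some arrays.

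The likeness of genes over the 4 arrays was measured as the Euclidean distance between their centred values, a description over 4 arrays only. COL11A2 and NID1 were 0.535 apart and NID1 and COL11A1 0.322 apart, while LAMA4 lay 0.677 from NID1. The partner chains COL11A2 and COL11A1 were 0.65 apart, with 65 of the other probes nearer to COL11A2. The positive side was crowded, with 44 of the other probes nearer to COL11A2 than NID1 was and 22 nearer to NID1 than COL11A1 was. ITGAV and ITGA7 were 0.682 apart, with 24 probes nearer to ITGAV. ITGAV lay 3.70 to 4.89 from the other 4 genes, and HYAL3 2.69 to 4.89.

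The named genes nearest to COL11A2 were DNASE1L1 (0.222), the chaperone gene DNAJB1 (0.227) and ZNF347 (0.257). Nearest to NID1 were TACC3 (0.211), HOXB9 (0.220) and ECE1 (0.223), and nearest to LAMA4 were RCBTB2 (0.117), the mitotic entry kinase gene WEE1 (0.322) and EIF1AX (0.336). ITGAV was most like LGMN (0.329), CCS (0.335) and LRRC15 (0.40). HYAL3 stood more alone: its nearest genes were ZNF135 at 0.920, HSPA9 at 1.19 and TEAD2 at 1.40. ZNF135 had values of 1.83 and 1.63 in mixture 1 and of -1.52 and -0.34 in mixture 2, the same change of side as HYAL3.

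The sides of the 5 genes in mixture 1 were the same under every alternative in which they had a value, 13 for COL11A2, NID1 and LAMA4 and 12 for HYAL3 and ITGAV. COL11A2 and HYAL3 passed in mixture 1 in all of theirs. NID1 passed in 11 of 13, ITGAV in 10 of 12 and LAMA4 in 5 of 13. These tallies count 1 fit more than once. For mixture 1, using its own arrays alone and leaving out either array of mixture 2 are the same fit. All 5 genes passed in it, as did 486 of 1152 probes, so nothing is read from their count. That fit and the one blocked on replicate number keep the main value, so no side could change there. Nor could a side change with an array of mixture 1 left out, with scaled arrays or without centring. For each gene both arrays of mixture 1 already lay on 1 side, as centred and as deposited. The agreement of sides is therefore not read as stability. ITGAV did not pass without replicate 1 of mixture 1 (log2 -0.99) or with the arrays scaled to 1 spread (-0.93). LAMA4 passed with neither array of mixture 1 left out (0.84 and 1.05), nor from either spot alone (0.79 and 1.04). Over the 389 probes with close duplicate spots, centred again on their own median, LAMA4 lay at 0.12, NID1 at 0.54 and COL11A2 at 0.83, and HYAL3 and ITGAV had no value.

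**Figure D5:**
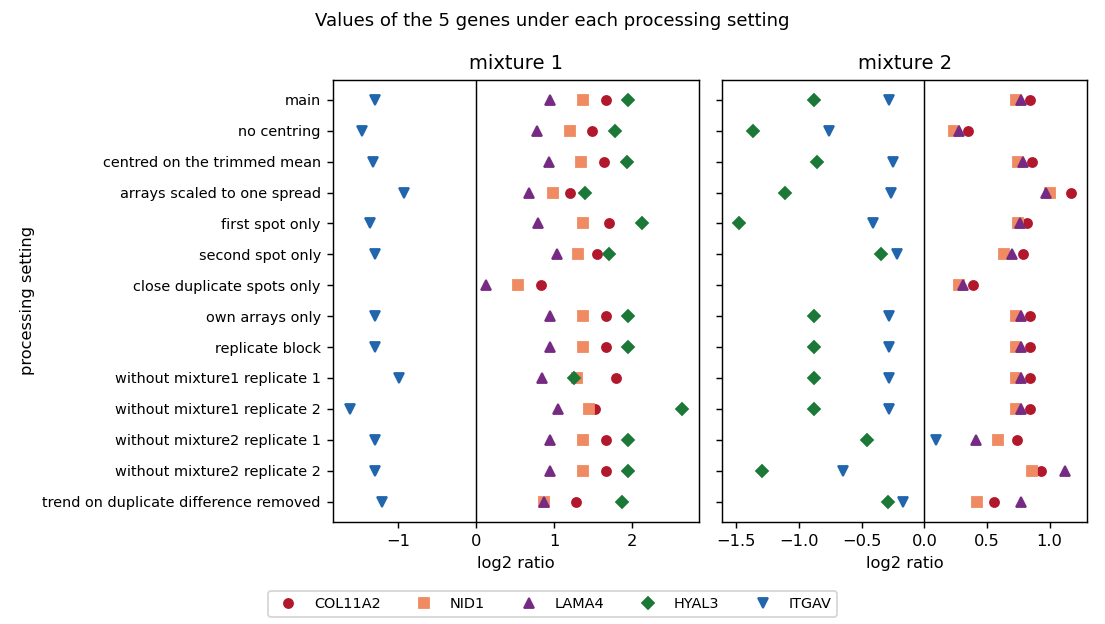
Log2 ratio (x axis) of the 5 genes in mixture 1 (left) and mixture 2 (right) under the main and the 13 alternative processing settings (y axis); symbols are genes. In mixture 1 every gene keeps its side, which many of the settings could not change. LAMA4 comes closest to 0 there (0.12 with close duplicate spots only), and in mixture 2 ITGAV moves from -0.28 to 0.09 without replicate 1.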

How the data were processed

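The members and gene lists were chosen with earlier results of these data known. The authors deposited 1 table of log2 ratios between the channels of each array, 1 value for each of 2304 spots. Taken out of the logarithm, the size of every ratio (100% of spots) was a whole multiple of a hundredth, within 0.001. Per the labels, a normalization factor of 3.8 belongs to mixture 1 replicate 2 and of 1.169 to mixture 2 replicate 1; no source used here gives what they were applied to, the dyes, the background step or any filter on spots.

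Adjacent spots were averaged to 1152 probes, a pairing borne out by the annotation (358 of 358 annotated probes) and by r = 0.725 to 0.819 between paired spots. Symbols are those of human genes in GEO's annotation of the platform: 350 probes had 1 symbol, 8 several and 794 none. Of the 5 members, 4 matched a symbol in RefSeq's Chinese hamster table (CriGri-PICRH-1.0); NID1 did not. Positions in a genome were not used. Each array was centred on its median over probes. limma 3.58.1 in R 4.3.3 (lmFit, eBayes) fitted 1 mean per mixture over all 4 arrays, with 2 residual and 6.69 prior degrees of freedom and Benjamini-Hochberg adjustment over all probes, and was tested on simulated data. The spread of RT210B is left out of every test, and the number of arrays limits the precision (median SE 0.313 for a mixture). Besides the members, the measured genes of 7 lists and the 3 nearest named genes of each member were named. Alternatives changed the centring, the scaling, the spots used, the probes kept, the fit and the arrays. For a single mixture, its own arrays alone and leaving out either array of the other mixture are the same fit. They are counted separately in the tallies of alternatives.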

Additional observations from a re-analysis of the deposited data

Results flagged for a closer look

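HYAL3 lay on the positive side on both arrays of mixture 1 and on the negative side on both arrays of mixture 2, with mixture 1 minus mixture 2 at 2.83 (SE 0.558). It did not pass in the fit across all probes, and since it was chosen with this pattern known the value is a description. MMP13 also changed side, with a difference of 1.11 (SE 0.436, limma adjusted p 0.176, not passed), on values of 0.76 and 0.04 against -0.78 and -0.65. On replicate 2 of mixture 1 the side of MMP13 rested on the centring, since its deposited value there was -0.19. After centring its 2 spots on that array lay at 0.28 and -0.21. Without that array the difference was 1.47 (limma adjusted p 0.046), and it passed in none of the other 10 alternatives. BMP1 changed side in the opposite direction, with a difference of -0.47 (SE 0.401, limma adjusted p 0.458, not passed). Without centring BMP1 was negative on all 4 arrays. Its spots lay at 0.38 and -0.92 on replicate 1 of mixture 1, and the first spot alone gave a mean of 0.0 in that mixture.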

How the results depend on the processing

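The main counts of passing probes (limma, Benjamini-Hochberg) were 497 in mixture 1, 0 in mixture 2, 446 in the mean of both mixtures and 0 between the mixtures. With the arrays scaled to 1 spread they were 231 in mixture 1 and 262 in mixture 2. Over the 389 probes with close duplicate spots, where fewer probes are tested, they were 135 in mixture 1, 114 in the mean and 1 between the mixtures. After removal of the trend on the spot difference (added after seeing the data) they were 247 in mixture 1, 131 in the mean and 17 between. Without centring 206 passed in mixture 2 and 47 between the mixtures. Mixture 2 fitted on its own arrays had 113. Leaving out 1 array gave 390 to 486 in mixture 1, 0 to 113 in mixture 2, 219 (without mixture 2 replicate 1) to 505 in the mean and 0 to 213 between, where a lone array is assumed to vary like the other mixture. The cause of these changes was not tested. With the replicate number as a block 36 passed between the mixtures, HYAL3 among them, and no other call on the 5 genes changed. The numbers do not pair the samples by any label, and the deviations of same-numbered arrays correlated at -0.0979 over probes. Of 242 alternative values of the 5 genes, 211 moved by less than the SD between arrays and 31 moved by more. No value that passed changed side. Many of the 211 could not have moved by more. The replicate block keeps the main value. For a single mixture, so do its own arrays alone and leaving out an array of the other mixture. Leaving out 1 of the 2 arrays of a mixture cannot move its mean by more than their SD. The count of 211 is therefore not read as stability. HYAL3 passed in the mean of both mixtures without mixture 1 replicate 2 (0.88, against 0.53), and LAMA4 (0.68) and ITGAV (-0.60) did not without mixture 2 replicate 1. Signal over background is unknown here.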

Other observations

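A further 6 matrix-related genes outside the gene lists were picked from the names on the array. PXDN, the peroxidase that crosslinks collagen IV, had values of 0.82 and 1.23 in mixture 1 and of -0.24 and -0.70 in mixture 2, and passed in mixture 1 (log2 1.02, SE 0.301, limma adjusted p 0.025). It changed side between the mixtures, with a difference of 1.49 (SE 0.426, limma adjusted p 0.110) that did not pass, and its spots lay 0.781 and 1.90 apart on the arrays of mixture 1. EXT2, an enzyme of heparan sulfate synthesis, passed in mixture 1 as well (log2 1.25, SE 0.363, limma adjusted p 0.0243), with 1.81 and 0.68 on its arrays and spots 2.57 apart on the former. Each passed in 8 of 12 alternatives in mixture 1, PXDN not without replicate 2 of mixture 1 (0.82) and EXT2 not without replicate 1 (0.68). The glypican GPC6 (log2 0.59), the linker protein gene DST (-0.32), QSOX1 (0.26) and the galectin gene LGALS9 (-0.78) did not pass in mixture 1 (limma adjusted p 0.102 to 0.478).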
